A study of Homo sapiens with 4 samples.

Results

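The genes described here are 30 well-known direct targets of the transcription factor p53, taken by symbol from a list. The list was chosen with earlier results of these data known. Of these, 28 were read among the 18417 genes measured, each by 1 probe set, while BTG2 and FDXR were not analysed here. RNA levels were read on Affymetrix whole-transcript arrays in 4 groups of 1 array each. The first was LTAD cells transfected with an siRNA against PSF (siPSF LTAD), the RNA-binding protein encoded by SFPQ. The second was LTAD cells transfected with a control siRNA (siControl LTAD). The third was untransfected LTAD cells, and the fourth LNCaP cells. LNCaP is a human prostate cancer line that responds to androgen, and LTAD was derived from it by long growth without androgen, so all 4 groups share 1 origin. LTAD cells grew without phenol red in 10% serum stripped of hormones with charcoal. LNCaP cells were held under such conditions with 2.5% stripped serum for 24 h, so line and culture cannot be told apart. The sources used here do not give the siRNA dose, the time after transfection, the batch or the scan date. With 1 array a group, no difference has a replicate check, and no test, error or p-value can be given.

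The p53 protein is held at a low level by MDM2, a ubiquitin ligase whose own gene p53 activates, so the pathway carries a negative feedback loop. When DNA damage, ribosome stress or oncogene activity frees p53 from MDM2, it binds a paired motif near its target genes and raises their transcription. The targets stop the cell cycle, start cell death, repair DNA, and adjust metabolism and redox state. The members are taken by role below, as arrest, apoptosis, repair, metabolic and feedback targets.

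The p53 motif is a pair of 10-letter half-sites, and the RefSeq promoter windows (assembly GRCh38.p14, 250 bases before and 50 after a transcript start) were searched for 2 adjacent half-sites with at most 2 mismatches in 20 letters. The motif was searched by its name's consensus, the p53 half-site, which reads the same on both strands. Windows were counted for 23 of the 28 measured members. GADD45A and PHLDA3 had no window in the table. TNFRSF10B, TP53INP1 and RRM2B were left out of the member counts by their chromosome, and their windows are not reported here. Such a pair was found in 5 of the 33 windows of these 23 members, and the 5 belong to MDM2, FAS, DDB2 and AEN. Of all 35116 windows in the table, with none left out by chromosome, 0.649% held one. The stretches are shown as matches to the motif, which the array values do not use. They run 5′ to 3′ on the plus strand, and capitals mark the pair of half-sites.
MDM2: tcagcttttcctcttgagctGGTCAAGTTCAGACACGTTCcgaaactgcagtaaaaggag
FAS: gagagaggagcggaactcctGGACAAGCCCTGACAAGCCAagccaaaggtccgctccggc
DDB2: ccggagctccAAGCTGGTTTGAACAAGCCC
AEN: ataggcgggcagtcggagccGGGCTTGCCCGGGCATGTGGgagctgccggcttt

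The MDM2 pair, at chr12:68808923-68808942, lay 81 and 74 bases before the 2 starts of the internal promoter of the gene, with 2 mismatches. The FAS pair, at chr10:88991309-88991328, lay within the gene, 102 bases before a downstream start, and also had 2 mismatches. The DDB2 pair, at chr11:47214969-47214988, spanned a transcript start and had 1 mismatch. The AEN pair, at chr15:88621306-88621325, ended 14 bases before the start and had 2 mismatches. These members did not read alike between the siPSF and siControl arrays, where the log2 differences were 0.50 for FAS, 0.31 for DDB2, 0.25 for MDM2 and -0.05 for AEN. A match is a description of letters, and a window without one says nothing of sites outside it.

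Levels are log2 values after quantile normalization of the 4 arrays, which gives the arrays 1 common distribution. The deposited columns were not on a common scale, with medians of 6.04 for siPSF LTAD, 5.98 for siControl LTAD, 7.20 for untransfected LTAD and 6.91 for LNCaP. SFPQ, the siRNA target, read 9.87 in siPSF LTAD, against 11.23 in siControl LTAD, 10.82 in untransfected LTAD and 10.83 in LNCaP, and was 2.58-fold lower in siPSF LTAD than in siControl LTAD. Of 5 luminal prostate markers measured, 4 stood at or over the median level of all genes (7.23) in siPSF LTAD and 5 in each other array. Of the 4 endothelial markers none did, of the 4 basal markers at most 1, of the 4 immune markers 1 (CD68), and of the 6 stromal markers 1 in siPSF LTAD, siControl LTAD and LNCaP and 2 in untransfected LTAD. The second stromal marker was LUM, at 8.80 in untransfected LTAD. The luminal marker under the median in siPSF LTAD was KLK3, at 7.11. It read 7.47 in siControl LTAD, 11.06 in untransfected LTAD and 12.89 in LNCaP. No detection call was used, and a level under 7.23 is not shown to be above background. For such levels differences are given and no fold.

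**Figure D1:**
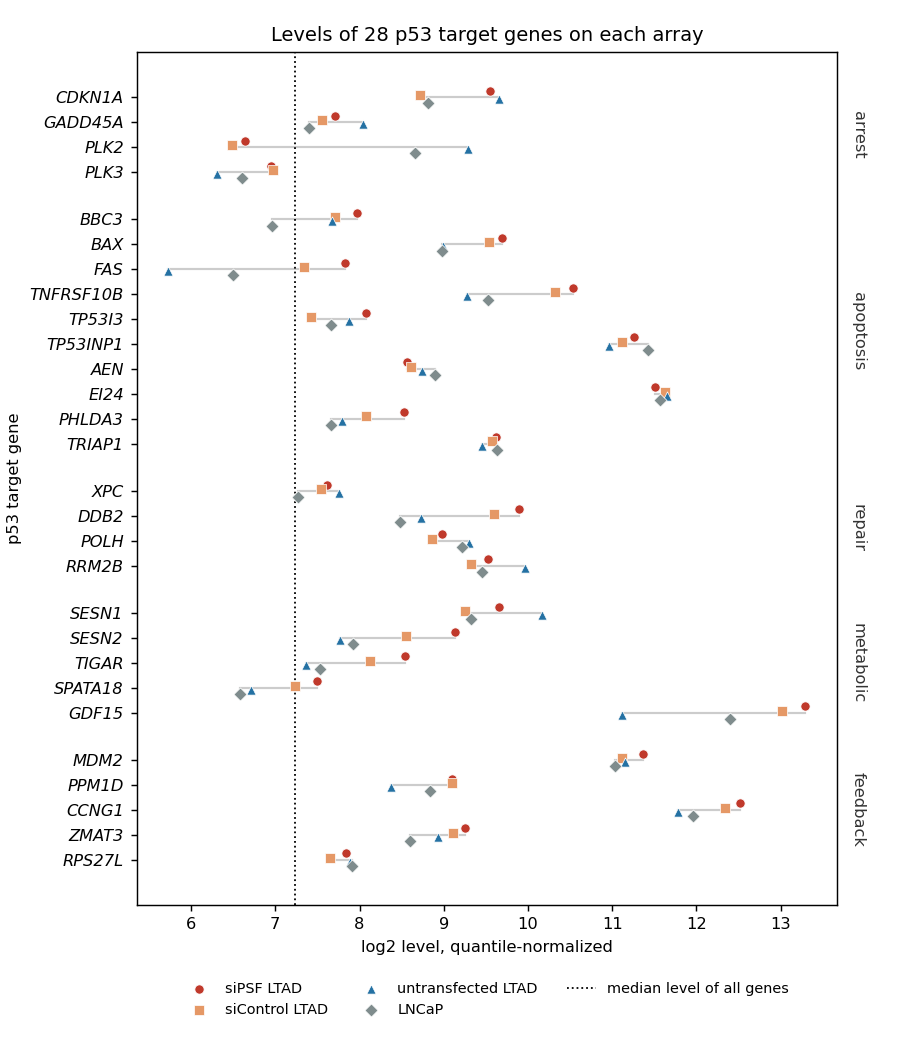
Log2 level after quantile normalization (x axis) of each of the 28 measured p53 target genes (rows, grouped by role) on the 4 arrays, 1 point per array. The siPSF LTAD point lies furthest right for 15 of the genes, and the untransfected LTAD point for 8. The dotted line is the median level of all genes, 7.23.

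The siPSF and siControl arrays compare an siRNA against PSF with a control siRNA in the same line. With siPSF, 25 of the 28 measured p53 targets read above siControl, where 48.1% of all genes did. The median log2 difference of the members was 0.19, against -0.01 over all genes. At 1.3-fold, 7 members were higher (25.0%), beside 3.82% of all genes, and 0 were lower, beside 7.78% of all genes. The 7 were CDKN1A, TP53I3, SESN2, FAS, PHLDA3, TIGAR and SESN1. At 2-fold no member was higher, beside 0.0923% of all genes, or lower, beside 0.494%. The differences are thus small, and the lowest was -0.12, for EI24. EI24, AEN and PLK3 were the 3 members below siControl.

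The same counts were taken separately among genes at or over the median level and among genes no longer than the longest member. Neither set was matched to the members' own levels or lengths. Among the 9209 genes with a mean level at or over the median, 3.15% were at least 1.3-fold higher and 7.71% lower, and 6 of the 25 members in that group were higher. The longest member, SESN1, spans 110.5 kb, and a member spans 23.2 kb at the median, where a gene of the whole set spans 24.5 kb. Of the 1433 genes at least 1.3-fold lower with siPSF, 900 were no longer than SESN1. Among the 15614 genes no longer than SESN1, 4.03% were at least 1.3-fold higher and 5.76% lower.

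Arrest targets are genes that hold the cell cycle. CDKN1A encodes p21, the inhibitor of cyclin-dependent kinases through which p53 stops cells before S phase. Its level was 9.55 in siPSF LTAD, against 8.72 in siControl LTAD, 9.66 in untransfected LTAD and 8.81 in LNCaP. The 4 values formed 2 pairs on this scale, with siPSF LTAD and untransfected LTAD high and siControl LTAD and LNCaP low. With deposited values the pairs did not hold, at 9.14 in siPSF LTAD, 8.30 in siControl LTAD, 10.15 in untransfected LTAD and 9.15 in LNCaP. After median centring siPSF LTAD and untransfected LTAD differed by 0.00306. The differences that follow are after quantile normalization. CDKN1A was 1.78-fold higher in siPSF LTAD than in siControl LTAD, the largest difference among the members, and differed by -0.10 between siPSF LTAD and untransfected LTAD. GADD45A, a stress sensor that acts at the G2 checkpoint, read 7.71 in siPSF LTAD, against 7.55 in siControl LTAD, 8.04 in untransfected LTAD and 7.40 in LNCaP. PLK2, a polo-like kinase of the stress response, read 6.64 in siPSF LTAD, against 6.48 in siControl LTAD, 9.29 in untransfected LTAD and 8.66 in LNCaP. Both transfected arrays were thus low for PLK2, under the median of all genes, and both untransfected arrays were high. PLK3, a related kinase, was under the median level of all genes in all 4 arrays, at 6.95 in siPSF LTAD, against 6.97 in siControl LTAD, 6.31 in untransfected LTAD and 6.61 in LNCaP. Between siPSF LTAD and siControl LTAD the median of the 4 arrest targets was 0.16, and CDKN1A was the 1 member past 1.3-fold.

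Apoptosis targets include death receptors, mitochondrial killers and genes that set the threshold for death. Of 10 measured, 8 read above siControl, 3 of them at least 1.3-fold, and the median was 0.19. FAS, a death receptor at the cell surface, read 7.83 in siPSF LTAD, against 7.34 in siControl LTAD, 5.73 in untransfected LTAD and 6.50 in LNCaP. Both transfected arrays were above the untransfected ones, whose FAS levels were under the median of all genes. FAS was 1.41-fold higher in siPSF LTAD than in siControl LTAD. TNFRSF10B, the TRAIL receptor DR5, read 10.54 in siPSF LTAD, against 10.32 in siControl LTAD, 9.28 in untransfected LTAD and 9.52 in LNCaP, with the same split between transfected and untransfected arrays. TP53I3, an oxidoreductase linked to reactive oxygen in p53-driven death, read 8.08 in siPSF LTAD, against 7.42 in siControl LTAD, 7.88 in untransfected LTAD and 7.66 in LNCaP. It was 1.58-fold higher in siPSF LTAD than in siControl LTAD, and siControl LTAD was its lowest array. PHLDA3, a competitor of AKT for membrane lipids, read 8.53 in siPSF LTAD, against 8.08 in siControl LTAD, 7.79 in untransfected LTAD and 7.66 in LNCaP, so it was highest with siPSF and 1.37-fold above siControl.

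The remaining apoptosis targets all differed by less than 1.3-fold between the siPSF and siControl arrays. BBC3, the BH3-only protein PUMA, read 7.97 in siPSF LTAD, against 7.71 in siControl LTAD, 7.68 in untransfected LTAD and 6.96 in LNCaP, and BAX, the pore-forming executioner, 9.69 in siPSF LTAD, against 9.54 in siControl LTAD, 8.99 in untransfected LTAD and 8.97 in LNCaP. The siPSF minus siControl differences were 0.26 for BBC3 and 0.15 for BAX, both under 1.3-fold. TP53INP1, a stress protein of death and autophagy, differed by 0.13, and TRIAP1, a mitochondrial lipid-transfer subunit that restrains apoptosis, by 0.05. AEN, a nuclease of apoptotic DNA digestion, and EI24, an endoplasmic reticulum protein of autophagy, were the 2 apoptosis targets below siControl, with -0.05 and -0.12. EI24 and TRIAP1 were nearly level over all 4 arrays after quantile normalization, with ranges of 0.14 and 0.18. With deposited values EI24 ran from 11.19 in siPSF LTAD to 12.02 in untransfected LTAD, and TRIAP1 from 9.18 in siControl LTAD to 9.95 in LNCaP.

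The 4 repair targets all read above siControl, none by 1.3-fold, with a median of 0.16. DDB2 recognises ultraviolet damage in chromatin ahead of nucleotide excision repair. Its level was 9.90 in siPSF LTAD, against 9.59 in siControl LTAD, 8.73 in untransfected LTAD and 8.48 in LNCaP, so both transfected arrays were high and it was 1.24-fold higher with siPSF than with siControl. XPC, the partner damage sensor of the same pathway, read 7.61 in siPSF LTAD, against 7.54 in siControl LTAD, 7.76 in untransfected LTAD and 7.27 in LNCaP. RRM2B, the p53-inducible small subunit of ribonucleotide reductase, read 9.52 in siPSF LTAD, against 9.33 in siControl LTAD, 9.96 in untransfected LTAD and 9.46 in LNCaP. XPC, RRM2B and POLH, a translesion polymerase, were highest in untransfected LTAD, unlike DDB2.

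Metabolic targets had the largest median of the 5 roles in this comparison, 0.41, with 5 of 5 members above siControl and 3 at least 1.3-fold. SESN2, a leucine-sensing inhibitor of mTORC1 signalling, read 9.14 in siPSF LTAD, against 8.55 in siControl LTAD, 7.77 in untransfected LTAD and 7.92 in LNCaP, and was 1.50-fold higher in siPSF LTAD than in siControl LTAD. Its paralog SESN1 read 9.66 in siPSF LTAD, against 9.25 in siControl LTAD, 10.17 in untransfected LTAD and 9.33 in LNCaP, and was 1.32-fold higher in siPSF LTAD than in siControl LTAD, or just under 1.3-fold, at a log2 difference of 0.376, with deposited values centred on each array's median. The paralogs thus had opposite orders between the transfected arrays and untransfected LTAD, which was the lowest array for SESN2 and the highest for SESN1. TIGAR, a phosphatase that diverts glucose from glycolysis to NADPH production, read 8.53 in siPSF LTAD, against 8.13 in siControl LTAD, 7.37 in untransfected LTAD and 7.53 in LNCaP. It was 1.33-fold higher with siPSF than with siControl. GDF15, a secreted stress cytokine, read 13.29 in siPSF LTAD, against 13.01 in siControl LTAD, 11.11 in untransfected LTAD and 12.40 in LNCaP, a difference of 0.28 between siPSF and siControl. SPATA18, a mediator of mitochondrial quality control, differed by 0.26 and reached the median level of all genes in siPSF LTAD alone, at 7.49.

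The feedback targets act on p53 itself. MDM2 read 11.36 in siPSF LTAD, against 11.11 in siControl LTAD, 11.15 in untransfected LTAD and 11.03 in LNCaP. It was highest with siPSF, 1.19-fold above siControl, while the other 3 arrays lay within 0.13 of each other. PPM1D, the phosphatase WIP1 that reverses damage signalling, read 9.10 in siPSF LTAD and 9.09 in siControl LTAD, a difference of 0.00, against 8.37 in untransfected LTAD and 8.84 in LNCaP. CCNG1, cyclin G1, which recruits a phosphatase to MDM2, differed by 0.19 between siPSF and siControl. RPS27L, a ribosomal protein paralog that binds MDM2, differed by 0.20 and may share probe signal with RPS27. ZMAT3, an RNA-binding zinc finger protein, differed by 0.15. All 5 feedback targets were above siControl, none by 1.3-fold, with a median of 0.19.

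**Figure D2:**
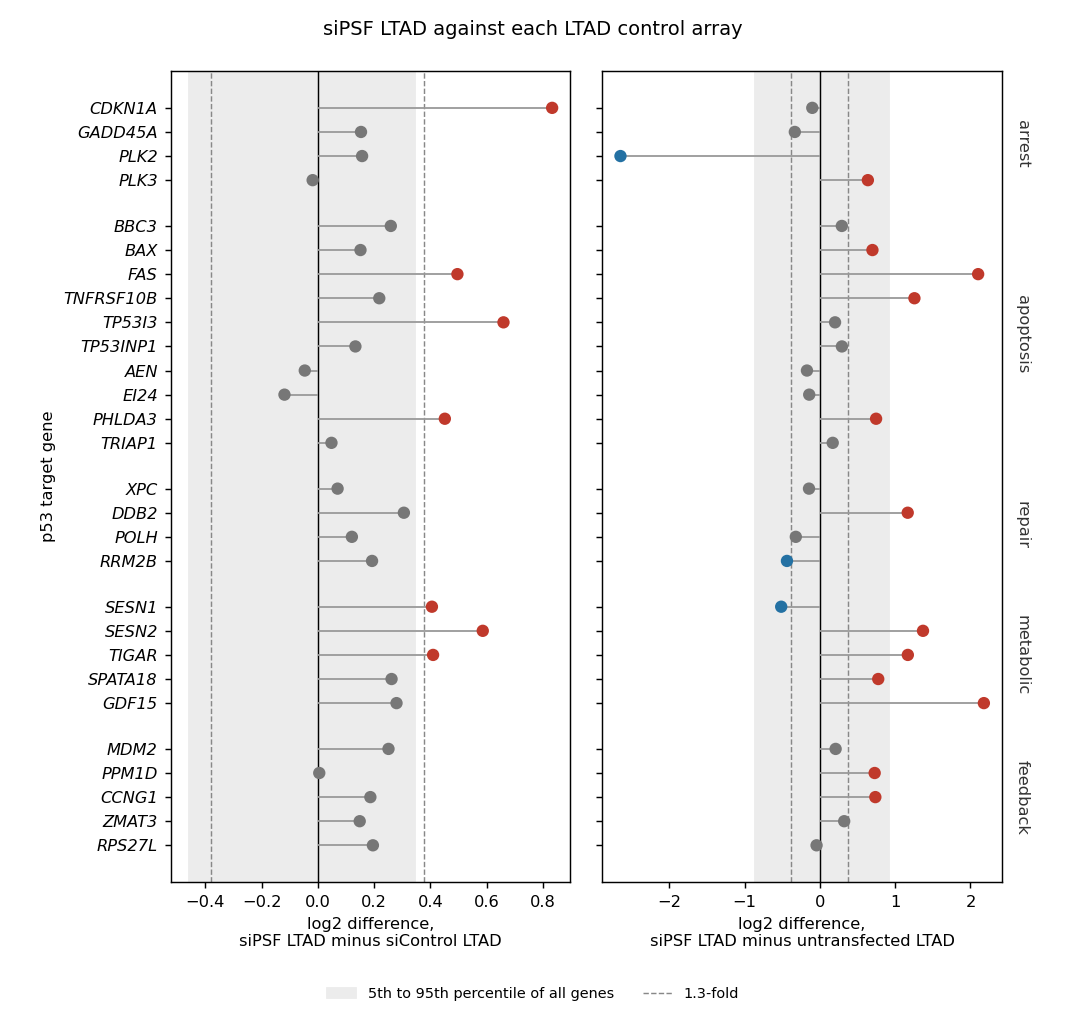
Log2 difference (x axis) of each of the 28 measured p53 target genes (rows, grouped by role) between siPSF LTAD and siControl LTAD (left) and between siPSF LTAD and untransfected LTAD (right, wider axis). Red and blue points are at least 1.3-fold higher and lower, grey points neither, and the shaded band holds the 5th to 95th percentile of all genes. Against siControl 7 members were red and 0 blue, and against untransfected LTAD 12 were red and 3 blue.

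Set against untransfected LTAD in place of siControl, siPSF LTAD had 12 of 28 members at least 1.3-fold higher (42.9%), beside 24.1% of all genes, and 3 lower (10.7%), beside 18.2% of all genes. The 2 comparisons share the siPSF array. The 12 were PLK3, BAX, FAS, TNFRSF10B, PHLDA3, DDB2, SESN2, TIGAR, SPATA18, GDF15, PPM1D and CCNG1, and the 3 lower were PLK2, RRM2B and SESN1. At 2-fold 6 members were higher, beside 3.95% of all genes, and 1, PLK2, was lower, beside 3.76%. GDF15 was 4.52-fold higher and SESN2 2.58-fold higher in siPSF LTAD than in untransfected LTAD. Role medians had both signs here. The metabolic median was 1.17 and the apoptosis median 0.29, while the arrest and repair medians were -0.22 and -0.23. CDKN1A and SESN1, past 1.3-fold above siControl, differed by -0.10 and -0.51, and TP53I3 by 0.20. For these 3 members the siControl array read lower than untransfected LTAD, by -0.94 for CDKN1A, -0.92 for SESN1 and -0.46 for TP53I3. FAS differed by 2.10 from an untransfected level not shown to be above background, PHLDA3 by 0.75 and TIGAR by 1.17. The direction of these counts rests on the scale. With deposited values the median over all genes was -1.01. FAS and GDF15 were then higher by 1.3-fold (7.14%), at 0.91 and 1.57, beside 1.29% of all genes. In the same values 17 members were lower (60.7%), beside 88.9% of all genes. The member median was -0.57, against 0.29 after quantile normalization.

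Untransfected LTAD was set against LNCaP to ask how the androgen-deprived line differs from its parent. At 1.3-fold 3 of 4 arrest and 2 of 4 repair targets were higher in untransfected LTAD, against 1 of 10 apoptosis, 1 of 5 metabolic and 0 of 5 feedback targets. Over all roles 7 of 28 members were higher (25.0%), beside 12.9% of all genes, and 4 were lower (14.3%), beside 14.2% of all genes. With deposited values 11 members were higher (39.3%), beside 36.2% of all genes, so the member share lay close to that of all genes there. The member median was 0.08, against 0.01 over all genes, and came to 0.22 with deposited values, whose median over all genes was 0.26, and to 0.00086 after median centring. CDKN1A was 1.80-fold higher in untransfected LTAD than in LNCaP, SESN1 1.79-fold and GADD45A 1.56-fold. PLK2 was 1.55-fold higher, RRM2B 1.42-fold and XPC 1.40-fold, and BBC3, whose LNCaP level was under the median of all genes, was higher by 0.72. The 4 lower members were GDF15, at -1.28, FAS, at -0.77 between levels that are both under that median, PPM1D, at -0.46, and TP53INP1, at -0.46. No member was 2-fold higher, beside 1.69% of all genes, and 1, GDF15, was 2-fold lower, beside 2.55%. By role, the medians were 0.63 for arrest, 0.37 for repair, -0.02 for feedback, -0.07 for apoptosis and -0.15 for metabolic targets.

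When siControl LTAD was set against LNCaP, 11 members were at least 1.3-fold above LNCaP (39.3%), beside 21.7% of all genes, and 1 was lower (3.57%), beside 13.6%. This comparison shares the LNCaP array with the one before. DDB2 was higher by 1.11, FAS by 0.84, TNFRSF10B by 0.80, BBC3 by 0.75, SPATA18 by 0.65 and SESN2 by 0.63, while PLK2 differed by -2.18. At 2-fold 1 member, DDB2, was higher, beside 2.19% of all genes, and 1, PLK2, was lower, beside 2.34%. CDKN1A and SESN1, high in untransfected LTAD, differed by -0.09 and -0.08 from LNCaP in siControl LTAD. GADD45A differed by 0.15, XPC by 0.27 and RRM2B by -0.13. POLH differed by -0.36 from LNCaP in siControl LTAD and by 0.08 in untransfected LTAD, and DDB2 by 1.11 and 0.25. The other repair targets, XPC and RRM2B, lay further from LNCaP in untransfected LTAD, at 0.48 and 0.50. With deposited values DDB2 differed by 0.37 in siControl LTAD and by 0.42 in untransfected LTAD. On the deposited scale the median over all genes was -0.75. No member was at least 1.3-fold above LNCaP there, beside 1.37% of all genes, and 17 were lower (60.7%), beside 81.6%. The member median was 0.26 after quantile normalization and -0.53 on the deposited scale. Of the 11 members above LNCaP, DDB2, at 0.37, GDF15, at 0.12, and TNFRSF10B, at 0.10, kept a positive sign there.

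**Figure D3:**
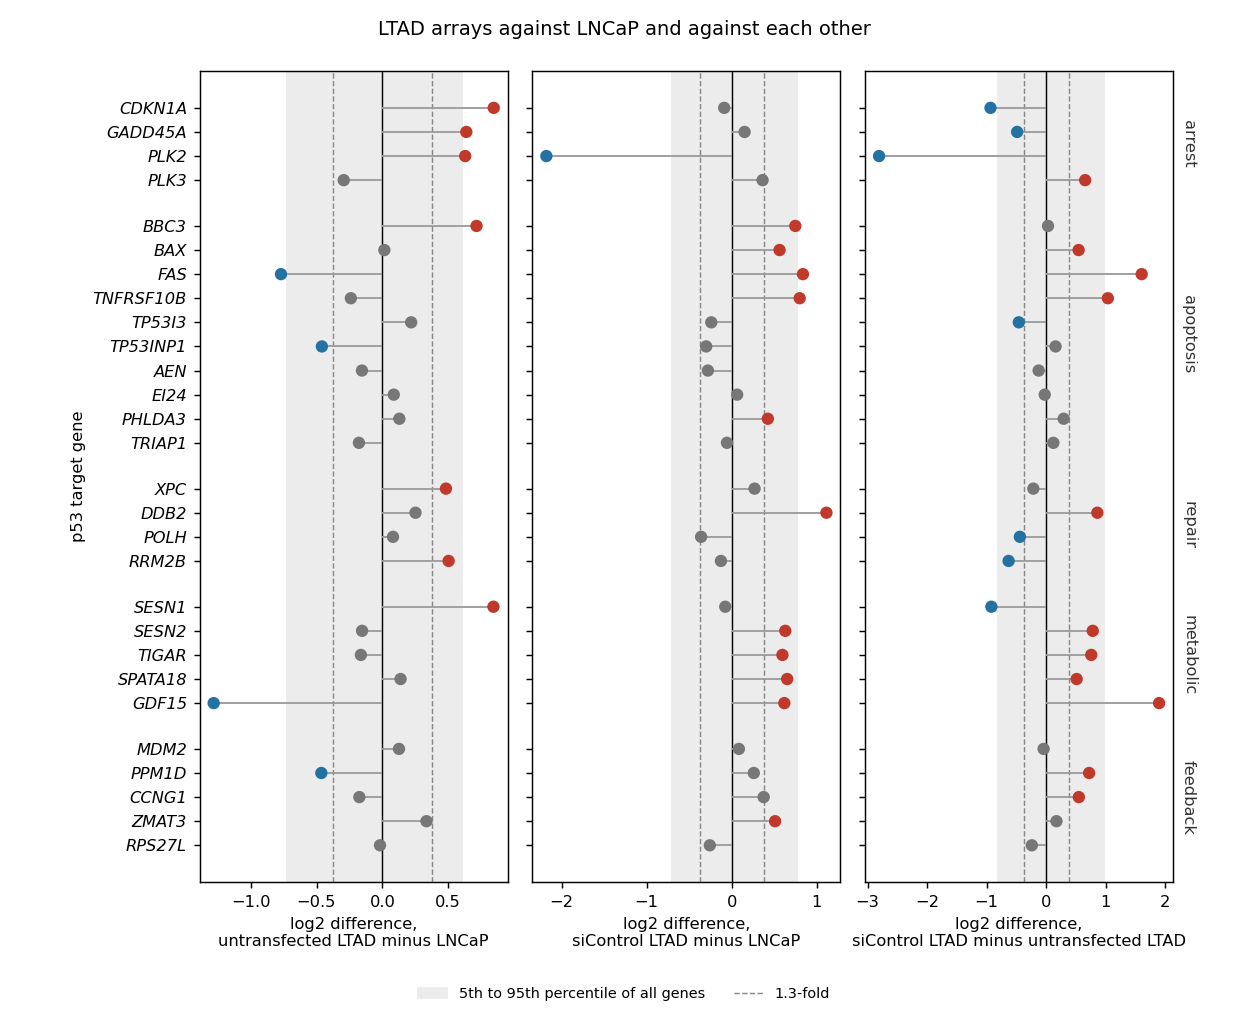
Log2 difference (x axes, of unequal width) of each of the 28 measured p53 target genes for untransfected LTAD minus LNCaP (left), siControl LTAD minus LNCaP (middle) and siControl LTAD minus untransfected LTAD (right). Red and blue points are at least 1.3-fold higher and lower, grey points neither, and the shaded band holds the 5th to 95th percentile of all genes. CDKN1A and SESN1 are red on the left, grey in the middle and blue on the right.

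The siControl and untransfected arrays show how far 2 LTAD arrays without an siRNA against PSF lay apart. The members' median absolute log2 difference was 0.53 between them, against 0.19 between siPSF LTAD and siControl LTAD, and over all genes it was 0.31 and 0.14. At 1.3-fold 11 members were higher in siControl LTAD (39.3%), beside 24.5% of all genes, and 7 lower (25.0%), beside 16.8%. The higher ones were PLK3, BAX, FAS, TNFRSF10B, DDB2, SESN2, TIGAR, SPATA18, GDF15, PPM1D and CCNG1. The lower ones were CDKN1A, GADD45A, PLK2, TP53I3, POLH, RRM2B and SESN1. At 2-fold FAS, TNFRSF10B and GDF15 were higher, beside 4.69% of all genes, and PLK2 was lower, beside 3.15%. GDF15 differed by 1.90, FAS by 1.61, TNFRSF10B by 1.04 and PLK2 by -2.81. On the deposited scale, where the median over all genes was -1.02, 8 of the 11 higher members took a negative sign, and FAS, TNFRSF10B and GDF15 kept a positive one. Role medians were 0.76 for metabolic, 0.17 for feedback, 0.14 for apoptosis, -0.33 for repair and -0.71 for arrest targets. Transfection, culture and handling cannot be told apart for this pair of arrays.

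**Figure D4:**
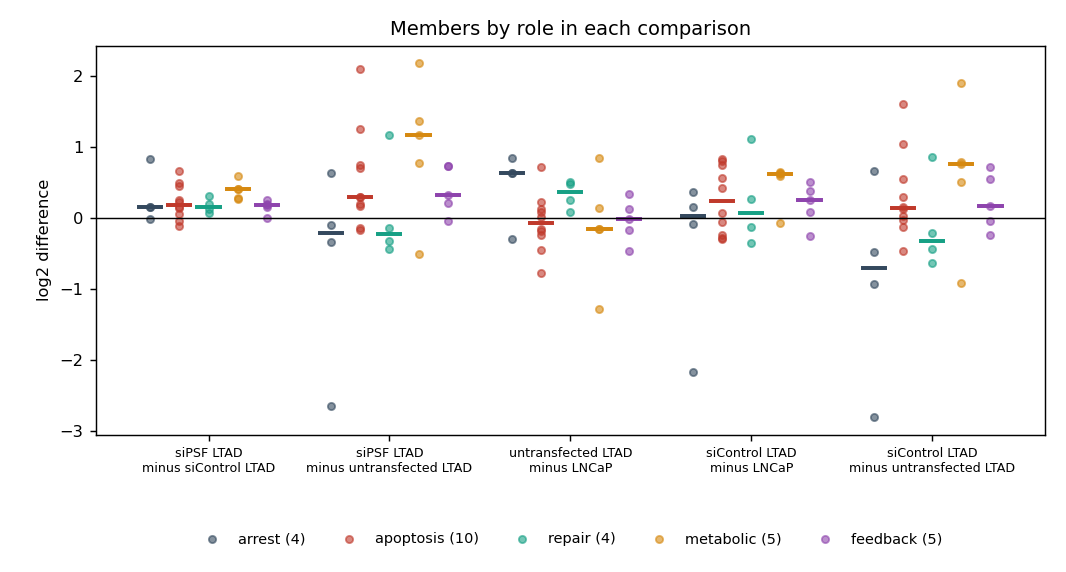
Log2 difference (y axis) of the 28 measured p53 target genes by role in each of the 5 comparisons (x axis), 1 point per gene, with a line at the median of each role and the number of genes in the legend. Between siPSF LTAD and siControl LTAD all 5 medians lay between 0.16 and 0.41, and between siControl LTAD and untransfected LTAD they ran from -0.71 for arrest to 0.76 for metabolic targets.

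After quantile normalization siPSF LTAD was the highest of the 4 arrays for 15 of the 28 members (53.6%), beside 25.9% of all genes. The siControl LTAD array was highest for 1 (3.57%), beside 26.3%. Untransfected LTAD was the highest for 8 members (28.6%), beside 27.2% of all genes. By role, siPSF LTAD was highest for 6 of 10 apoptosis, 4 of 5 metabolic and 4 of 5 feedback targets, and for 1 of 4 repair and 0 of 4 arrest targets. Untransfected LTAD was highest for 3 of 4 arrest and 3 of 4 repair targets. The members varied most across arrays for PLK2, by 2.81, GDF15, by 2.18, and FAS, by 2.10, and least for EI24, by 0.14. These orders and ranges rest on the scale. With deposited values MDM2 was highest in untransfected LTAD, at 11.56, against 11.04 in siPSF LTAD. FAS stayed highest in siPSF LTAD with deposited values, at 7.37.

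Other genes of the pathway were counted from lists. Of 53 further p53 targets measured, 3 were at least 1.3-fold higher with siPSF than with siControl (5.66%), beside 3.82% of all genes, and 2 lower (3.77%), beside 7.78%. Their median was 0.06, where the 28 members had 0.19, and 33 were above 0 (62.3%), beside 48.1% of all genes. DDIT4, an mTORC1 inhibitor also induced by hypoxia and stress, read 10.68 in siPSF LTAD and 9.77 in siControl LTAD, and NOTCH1, a signalling receptor, 8.58 and 8.13 in the same arrays. FANCC, of the Fanconi DNA repair pathway, was lowest at -0.89 and ASCC3, a helicase, differed by -0.35. The other called targets, chosen after their values were seen, were EPHA2, a receptor kinase, higher by 0.50, and TP53AIP1, at -0.76 between levels under the median of all genes. Of 19 regulators of p53 measured, 0 were at least 1.3-fold higher with siPSF than with siControl, beside 3.82% of all genes, and 1 (5.26%), HIPK2, a kinase of p53, was lower, at -0.46, beside 7.78%. CDKN2A, which encodes the MDM2 inhibitor ARF, differed by -0.31, KAT5, an acetyltransferase of p53, by 0.36, SIRT1, a deacetylase of p53, by 0.28 and MDM4, the partner of MDM2, by -0.03.

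**Figure D5:**
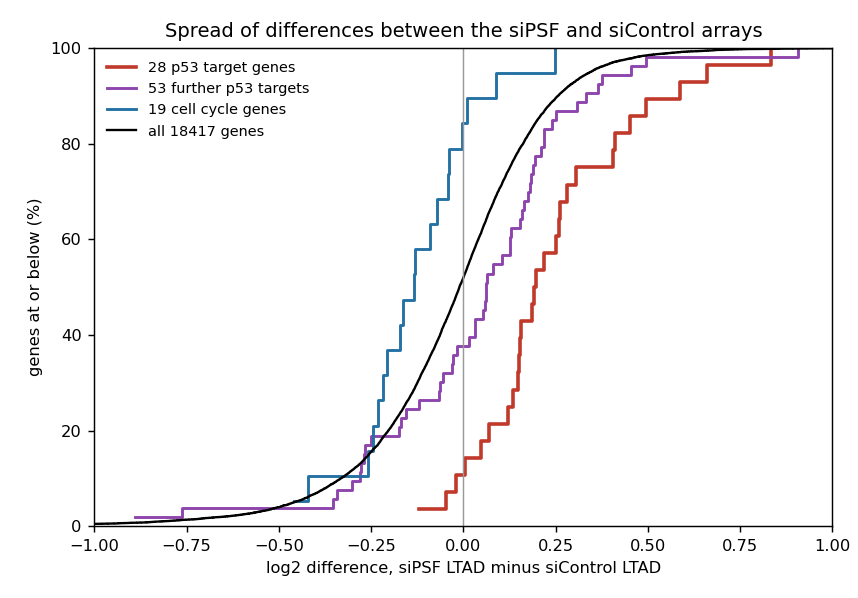
Cumulative share of genes (y axis, percent) by log2 difference between siPSF LTAD and siControl LTAD (x axis, cut at -1 and 1) for the 28 p53 target genes, 53 further p53 targets, 19 cell cycle genes and all 18417 genes. The line of the 28 members lies to the right of all genes with a median of 0.19, and the line of the cell cycle genes mostly to the left with a median of -0.13.

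Cell cycle genes that p53 lowers through p21 and the DREAM repressor complex were read beside CDKN1A. Between siPSF LTAD and siControl LTAD, 3 of 19 read above 0 (15.8%), beside 48.1% of all genes, and the median was -0.13. BUB1 and MYBL2 were at least 1.3-fold lower, with -0.46 and -0.42 (10.5% of the 19, beside 7.78% of all genes), and 0 were higher by that fold, beside 3.82%. CCNB1 and MCM5 were highest among those at or over the median level, with 0.09 and 0.01. Between untransfected LTAD and LNCaP all 19 were at least 1.3-fold lower, beside 14.2% of all genes, with a median of -1.11, while CDKN1A was higher by 0.85. Between siControl LTAD and untransfected LTAD all 19 were at least 1.3-fold higher, beside 24.5% of all genes, with a median of 1.23, while CDKN1A differed by -0.94. Between siPSF LTAD and untransfected LTAD all 19 were again at least 1.3-fold higher, beside 24.1%, with a median of 1.15, although CDKN1A differed by -0.10. On the deposited scale 8 of the 19 (42.1%) were at least 1.3-fold higher in siControl LTAD than in untransfected LTAD, beside 1.70% of all genes. In siPSF LTAD 6 were (31.6%), beside 1.29%. The medians of the 19 were 0.37 and 0.23, against -1.02 and -1.01 over all genes. The comparisons share arrays, so their signs are not independent.

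SESN2 and GDF15 are also activated by ATF4, the transcription factor of the integrated stress response. Of 10 ATF4 targets measured, 0 were at least 1.3-fold higher with siPSF than with siControl, beside 3.82% of all genes, or lower, beside 7.78%, and their median was -0.05. VLDLR and TRIB3 were highest, at 0.31 and 0.19, and SLC7A11 and ASNS lowest, both at -0.37, while SESN2 differed by 0.59 and GDF15 by 0.28. Between siControl LTAD and untransfected LTAD, 7 of the 10 were at least 1.3-fold higher (70.0%), beside 24.5% of all genes, with a median of 1.17. With deposited values the median of the 10 was 0.27, against -1.02 over all genes. After quantile normalization ASNS differed by 2.19 and PSAT1 by 2.09, beside 0.78 for SESN2 and 1.90 for GDF15. The part of that pathway in the values of SESN2 and GDF15 was not tested.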

How the data were processed

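The authors deposited log2 probe set levels. The submitters' processing notes name RMA and Affymetrix Expression Console, without versions or settings, and do not say which arrays were processed as 1 set. The 4 columns were quantile-normalized together over all 33297 probe sets, with Python 3.11.15, numpy 2.4.6 and pandas 2.3.3. This removes a shift common to most genes. Probe sets with 1 gene symbol (19460) were named from the platform annotation and updated by gene ID (19429 matched) to the RefSeq gene table of GRCh38.p14. The probe set with the highest mean was used for the 769 genes with several.

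Each comparison is a log2 difference between 2 arrays, counted at 1.3-fold over all measured members with no filter on level. There was no test, since each group had 1 array, which limits the precision. The counting was tested on simulated data. Members were taken in full, and from the other lists the 2 highest and 2 lowest genes between siPSF LTAD and siControl LTAD with a mean level over the median were named, and the other list members named were picked with their values in view. The members, lists, fold and comparisons were chosen with earlier results of these data known. Alternatives were the deposited scale, median centring, a level filter, the mean of probe sets, 2-fold and the other LTAD array. Some genes are not reported here.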

Additional observations from a re-analysis of the deposited data

How the results depend on the processing

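Of the member counts, those for siPSF LTAD against siControl LTAD stayed at 6 or 7 higher and 0 lower with deposited values, median centring, the level filter and the mean of probe sets. At 2-fold they were 0 and 0, and with untransfected LTAD as the control 12 higher and 3 lower. For untransfected LTAD against LNCaP, 7 were higher and 4 lower. The 2-fold threshold gave 0 and 1, and the siControl array as the LTAD array 11 and 1. With deposited values the counts were 11 (39.3%) and 2 (7.14%), beside 36.2% and 6.6% of all genes. The member shares thus lay close to those of all genes on that scale. For siControl LTAD against untransfected LTAD, 11 were higher and 7 lower, and the 2-fold threshold gave 3 and 1. The deposited scale gave 1 (3.57%) and 19 (67.9%), beside 1.70% and 87.9% of all genes. On that scale the median over all genes was -1.02 and the member median -0.73, against 0.14 after quantile normalization, and PLK3 came to -0.56, BAX to -0.36, DDB2 to -0.048, SESN2 to -0.20, TIGAR to -0.28, SPATA18 to -0.64, PPM1D to -0.21 and CCNG1 to -0.12. For siPSF LTAD against untransfected LTAD, with its alternatives chosen after seeing the data, the 2-fold threshold gave 6 higher and 1 lower. The deposited scale gave 2 higher (7.14%) and 17 lower (60.7%), beside 1.29% and 88.9% of all genes, and a member median of -0.57. PLK3 came to -0.52, BAX to -0.23, PHLDA3 to -0.27, SPATA18 to -0.34 and PPM1D to -0.24. For siControl LTAD against LNCaP, chosen likewise, the 2-fold threshold gave 1 and 1. The deposited scale gave 0 higher and 17 lower (60.7%), beside 1.37% and 81.6% of all genes, and a member median of -0.53. BBC3 came to -0.10, BAX to -0.16, FAS to -0.039, PHLDA3 to -0.38, SESN2 to -0.15, TIGAR to -0.22, SPATA18 to -0.23 and ZMAT3 to -0.24. Median centring kept the sign of these 2 medians, at 0.44 and 0.26. The shift lies in the deposited columns, and its cause was not tested. The mean of probe sets changed no member, since each has 1 probe set. No paired analysis was possible because each group has 1 array, and no replicate could be left out. With no detection calls, levels near the low end limit FAS, PLK2, PLK3, BBC3 and SPATA18.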
